A study of Mus musculus with 9 samples.

Results

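The interferon regulatory factors are transcription factors that share an N-terminal DNA-binding domain rich in tryptophan and bind GAAA repeats in the promoters of interferon and interferon-stimulated genes. Their roles differ: IRF3 and IRF7 switch on the interferon genes after a virus or foreign nucleic acid is sensed, IRF9 works with STAT2 in the complex ISGF3, which acts downstream of the interferon receptor, IRF1 activates and IRF2 mostly restrains an overlapping set of promoters, and IRF4, IRF5 and IRF8 are best known from blood cells. The 8 mouse genes described here, Irf1, Irf2, Irf3, Irf4, Irf5, Irf7, Irf8 and Irf9, were found by symbol in the annotation among 55487 genes in the count table. Of these, 7 passed the filter on low counts and were tested, and Irf4 had no count in any library.

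The study compared 3 groups of 3 libraries, all from isolated mouse cardiomyocytes, the muscle cells of the heart. The Firre group received an AAV9 vector (adeno-associated virus serotype 9, which infects heart muscle well) that overexpresses the long noncoding RNA Firre. The negative control received AAV9 with a control vector (its libraries are called vector controls here), and the labels call the remaining group a blank with no further detail. No label states strain, age, sex, vector dose, vector promoter or time after infection. The titles call the replicates biological without saying whether each is an animal or a culture. The p-values therefore speak for the spread of these libraries alone, part of which may be technical.

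Counts assigned to genes ranged from 15591542 to 22697016 per library. Firre itself stood at 62.6 to 69.7 CPM (the count scaled to library size with TMM factors) in the Firre group and at 30.2 to 37.2 CPM in the 6 control libraries, without overlap. Cardiomyocyte markers were the most abundant of the marker lists, with a summed level of 33000 to 35700 CPM over 12 genes in the control libraries and 49200 to 52200 CPM in the Firre group. The libraries also held other cells: 12 fibroblast markers summed to 11800 to 12500 CPM in the controls and 5830 to 6450 CPM with Firre, and 20 macrophage markers to 117 to 173 CPM in the controls and 15.7 to 20.4 CPM with Firre. In such bulk samples, fewer cells of a type and less RNA per cell cannot be told apart.

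Per kilobase of exon, Irf7 was the most abundant member in every group, followed in the negative control by Irf3, Irf9, Irf2, Irf1, Irf5 and Irf8. The mean levels there were 32.1 CPM per kilobase for Irf7, 10.6 for Irf3, 5.82 for Irf9, 3.24 for Irf2, 2.91 for Irf1, 2.25 for Irf5 and 0.891 for Irf8. In that order Irf2 and Irf1 overlapped between libraries, as did Irf1 and Irf5, while the other neighbours did not. The blank control had the same order, with overlap between Irf1 and Irf5 alone. With Firre the order changed at 2 places: Irf9, at 14.8 CPM per kilobase, stood above Irf3 at 10.3, and Irf1, at 5.30, stood above Irf2 at 3.19. Neither pair overlapped between libraries. The longest coding transcript was also used as the length, chosen after seeing the data. Irf1 and Irf2 then did overlap with Firre, at means of 9.85 and 9.46 CPM per kilobase. Their order there rests on the length used. In the negative control the means kept their order, but other neighbours overlapped. The lowest Irf9 library, at 9.93 CPM per kilobase, fell below the highest Irf2 library, at 9.98. The lowest Irf5 library, at 2.44, fell below the highest Irf8 library, at 2.61. Irf2 and Irf1 no longer overlapped there, nor did Irf1 and Irf5. The blank control likewise kept the order of its means with this length. Its lowest Irf9 library, at 9.27, fell below its highest Irf2 library, at 9.41. Its lowest Irf5 library, at 2.13, fell below its highest Irf8 library, at 2.42, while Irf1 and Irf5 no longer overlapped. Which neighbours overlapped in either control therefore rests on the length too.

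**Figure D1:**
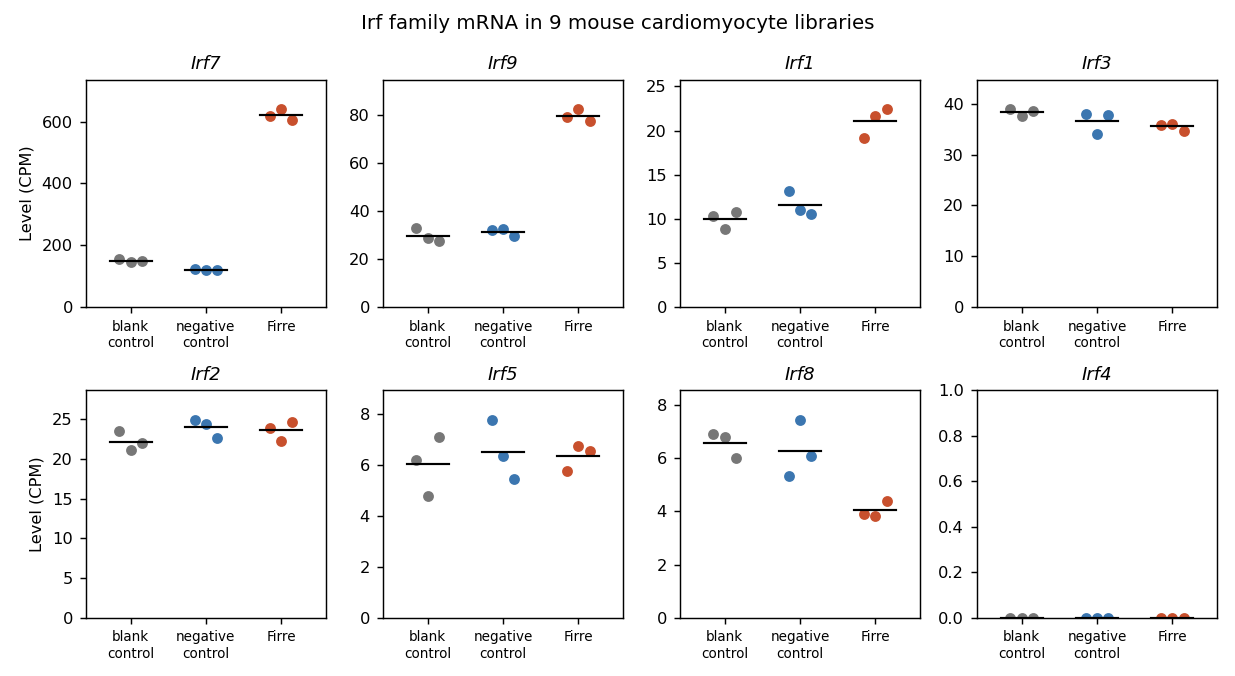
Level of each Irf gene in the 9 libraries, in CPM on a linear axis from 0, by group. Points are single libraries, offset sideways in replicate order, and bars are means of 3; Irf7, Irf9 and Irf1 were higher in every Firre library than in any control, Irf8 was lower, and Irf4 was at 0 throughout.

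Between the Firre group and the negative control, 3 of the 7 members tested were higher (Irf7, Irf9 and Irf1), 1 was lower (Irf8) and 3 were not called (Irf2, Irf3 and Irf5). A gene is called here when the p-value of edgeR's quasi-likelihood test, adjusted by the Benjamini-Hochberg method over all 15633 genes tested, is under 0.05. By that rule 56% of all genes were called, 27.5% higher and 28.4% lower, so 4 calls among 7 members is close to the background. The groups did not overlap for 4 members, against 62.4% of all genes. The size of the change set Irf7 apart from most genes: 0.94% of all genes were called and at least 4-fold higher, and Irf7 was among them. The same 3 members were higher and the same 1 lower against the blank control, where 56.3% of genes were called, 27.3% higher and 28.9% lower. There 5 members did not overlap between the groups, against 60.5% of all genes. Both comparisons share the Firre libraries.

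**Figure D2:**
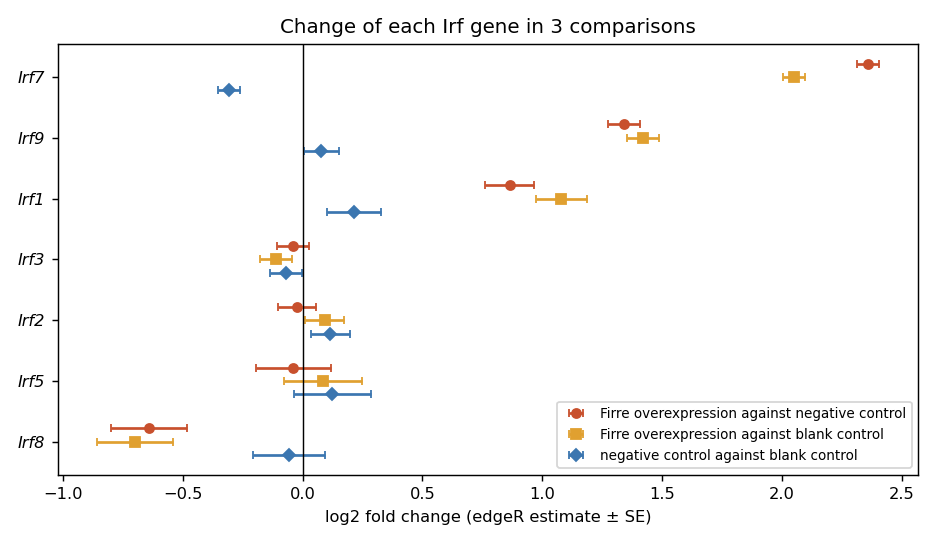
log2 fold change of each tested Irf gene (horizontal axis, edgeR estimate with 1 SE on each side) in the 3 comparisons. Irf7, Irf9 and Irf1 lie to the right of 0 in both comparisons of the Firre group and Irf8 to the left, while between the controls Irf7 alone was called, at -0.31.

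Irf7 encodes the factor that amplifies interferon production, and in most cells its own gene is induced by interferon through ISGF3. It lies on the minus strand of chromosome 7, from 141262706 to 141266481 in mm10 (ENSMUSG00000025498). The Firre libraries held 617, 640 and 607 CPM of Irf7, the vector controls 124, 120 and 120 CPM, and the blanks 155, 146 and 149 CPM. The 3 groups did not overlap, and the Firre libraries lay far above both controls. Irf7 rose 5.12-fold over the vector controls, by 2.36 in log2 units (SE 0.05, edgeR adjusted p = 8.32e-26), with the smallest p of all 15633 genes. Against the blank control the rise was 2.05 (SE 0.05, adjusted p = 1.18e-24) and ranked 3 of all genes by p. Its exons share 45 bases, 1.19% of their length, with Phrf1 on the opposite strand.

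Irf7 was also the member that separated the controls. It was lower in the negative control than in the blank control by 1.24-fold, which is -0.31 in log2 units (SE 0.05, edgeR adjusted p = 4.19e-03). In that comparison 9 of 15633 genes were called (0.0576%), 0.0064% higher and 0.0512% lower, and Irf7 had the smallest p of all. An unadjusted p under 0.05 was reached by 8.51% of genes. Irf7 was the 1 member whose controls did not overlap, as for 13.1% of all genes. The call rested on the blank control's first library: without it the value was -0.28 with an adjusted p of 0.0579, and edgeR called 0 genes in place of 9, with 1037 at an unadjusted p under 0.05 in place of 1331. DESeq2, run on all libraries, called 32 genes. Over all alternatives the adjusted p ranged from 3.96e-07 to 0.0579. The other 6 members were not called, with log2 fold changes from -0.07 for Irf3 to 0.21 for Irf1. Of the 32 listed ISGF3 targets, Ifitm3 was called in this comparison, at -0.28 (edgeR adjusted p = 0.0423), and the other 31 were not, at a list median of -0.03. Macrophage markers had a median of -0.51 between the controls, with 9 of 16 not overlapping and none called, and a summed level of 153 to 173 CPM in the blanks against 117 to 131 CPM in the vector controls. Their part in the Irf7 difference was not tested.

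Irf9 encodes the DNA-contacting subunit of ISGF3. The gene lies on the plus strand of chromosome 14, from 55603571 to 55610030. Irf9 stood at 79.2, 82.3 and 77.3 CPM with Firre, at 32.1, 32.5 and 29.4 CPM in the vector controls, and at 33.0, 28.9 and 27.4 CPM in the blanks. The controls overlapped each other, and every Firre library was above them. Irf9 rose 2.54-fold against the negative control (log2 1.34, SE 0.07, edgeR adjusted p = 7.34e-17) and by 1.42 against the blank control (SE 0.07, adjusted p = 2.66e-17). A stretch of 123 bases of its exons, 2.28% of their length, is shared with Rnf31 on the same strand, so its count may be off by the reads that fall there. In the same libraries 12 of 12 cardiomyocyte markers rose, at a median of 0.62, where 27.5% of all genes were higher. Their part in the rise of Irf9 was not tested.

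Stat2, the gene of an IRF9 partner in ISGF3, had a larger log2 change than Irf9. It went from 38.2, 35.6 and 34.2 CPM in the vector controls to 136, 137 and 139 CPM (log2 1.93, SE 0.06, edgeR adjusted p = 7.23e-22). The ratio of Irf9 to Stat2 counts within a library was 0.841, 0.913 and 0.860 in the negative control and 0.583, 0.601 and 0.556 with Firre, so the groups did not overlap. This ratio was chosen after the levels were seen and is given as a description.

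Genes that ISGF3 is known to bind and induce rose with Irf9 and Stat2. All 32 on the list were tested and all 32 rose, where 27.5% of all genes were higher. This list, like the others, was chosen with earlier results of these data known, so the count is a description. Their log2 changes ran from 0.84 to 5.47 with 2.61 as the median, where the median of all genes was 0.00024. The 3 with the smallest p were Oasl1, an oligoadenylate synthetase-like antiviral gene, which rose by 4.55, Rsad2, the gene of the antiviral enzyme viperin, which rose by 5.47, and Mx2, a dynamin-like antiviral GTPase, which rose by 4.30. Irf7, itself an ISGF3 target but kept off the list, had a value a little below that median.

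Irf1 encodes an activator induced quickly by interferon-gamma. The gene lies on the plus strand of chromosome 11, from 53770014 to 53778374. Irf1 reached 19.2, 21.6 and 22.4 CPM with Firre. The vector controls had 13.2, 11 and 10.6 CPM and the blanks 10.3, 8.87 and 10.8 CPM. The lowest Firre library stood above the highest control. The rise was 1.82-fold against the negative control (log2 0.86, SE 0.10, edgeR adjusted p = 2.10e-08) and 2.11-fold against the blank control (log2 1.08, SE 0.11, adjusted p = 4.83e-10).

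Irf2, the antagonist that competes with IRF1 for the same sites, did not pass the test in any comparison. The gene lies on the plus strand of chromosome 8, from 46739732 to 46847458. Irf2 stood at 23.9, 22.3 and 24.7 CPM with Firre. The vector controls had 24.9, 24.4 and 22.7 CPM and the blanks 23.5, 21.1 and 22 CPM, so the groups overlapped. The log2 fold change between the Firre group and the negative control was -0.02 (SE 0.08, adjusted p = 0.814). The ratio of Irf1 to Irf2 counts was 0.805, 0.970 and 0.905 with Firre. It was 0.528, 0.451 and 0.466 in the vector controls and 0.440, 0.421 and 0.491 in the blanks. Each Firre library had a higher ratio than any control. As Irf2 was not called, this ratio mostly restates the rise of Irf1 and adds no separate evidence.

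Genes known as targets of IRF1 and interferon-gamma mostly rose. Of 31 listed, 26 were tested, 22 rose, 1 fell and 3 were not called, at a median of 1.44. Of all genes 27.5% were higher and 28.4% lower. Irgm1, an immunity-related GTPase, rose by 1.86, the guanylate-binding protein gene Gbp7 by 2.53 and the immunoproteasome subunit gene Psmb8 by 2.75. The 1 that fell was Vcam1, an endothelial and stromal adhesion molecule (log2 -0.39, SE 0.05, adjusted p = 1.67e-08), named after its value was seen. In the same libraries 11 of 12 endothelial markers fell, at a median of -1.06, and their part in that value was not tested. Reads of the Gbp family can be shared between near-identical copies, so its values are uncertain.

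**Figure D3:**
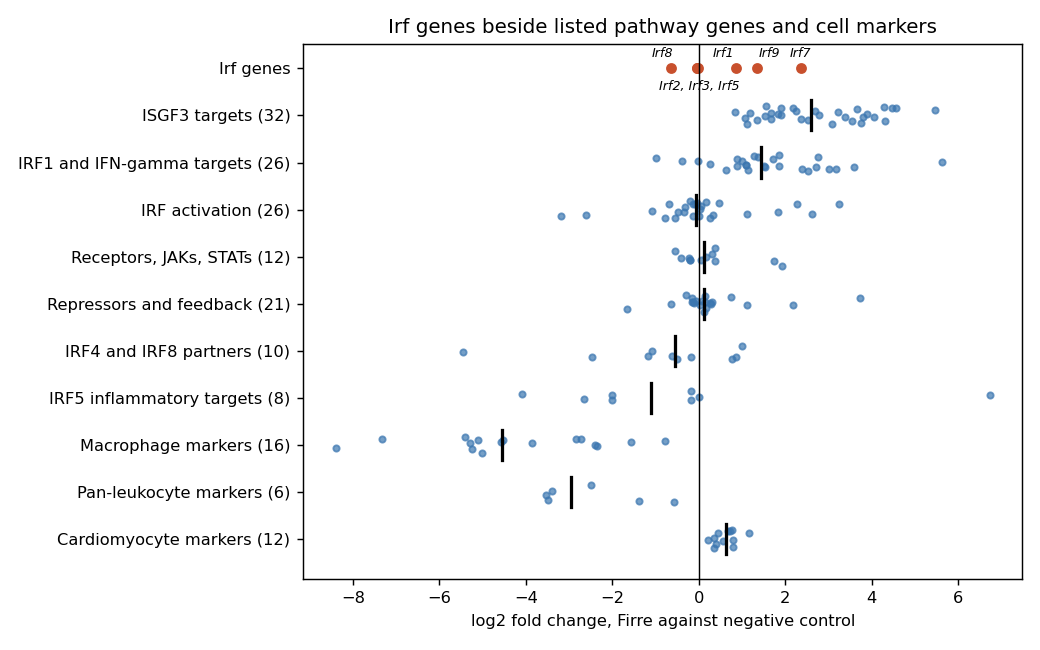
log2 fold change between the Firre group and the negative control (horizontal axis) of the 7 tested Irf genes (red, named) and of the tested members of 10 lists (blue, 1 point per gene, number in brackets). Black bars are list medians; ISGF3 targets all lie above 0, macrophage markers all lie below 0, and Irf8, at -0.64, lies nearer to 0 than all 16 of them.

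Irf3 is made constantly in most cells and is switched on by phosphorylation rather than by new transcription. The gene lies on the plus strand of chromosome 7, from 44997648 to 45002848. Irf3 stood at 35.8, 36.1 and 34.7 CPM with Firre. The vector controls had 38.0, 34.1 and 37.8 CPM and the blanks 38.9, 37.6 and 38.6 CPM. The Firre and negative control libraries overlapped, and the difference was -0.04 on the log2 scale (SE 0.07, adjusted p = 0.615). Against the blank control every Firre library was lower, at -0.11 in log2 units (SE 0.07, edgeR adjusted p = 0.165). With library totals alone as the scaling that difference passed, at -0.16, where the adjusted p was 0.0413; it ran from there to 0.351 under the alternatives. Its exons share 88 bases with Bcl2l12 on the opposite strand. The ratio of Irf7 to Irf3 counts was 17.2, 17.8 and 17.5 with Firre. It was 3.26, 3.53 and 3.17 in the vector controls and 3.99, 3.90 and 3.86 in the blanks. As Irf3 was not called, this ratio mostly restates the rise of Irf7 and adds no separate evidence.

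Of 28 sensors, adaptors and kinases that lead to IRF3 and IRF7 activation, 26 were tested, 8 rose, 10 fell and 8 were not called, at a median of -0.07. These counts lie near the background of 27.5% higher and 28.4% lower. The RNA sensor genes Ddx58 and Dhx58, which encode RIG-I and LGP2, rose by 1.83 and 2.28, and Zbp1, a sensor of Z-form nucleic acid, by 3.24. The kinases that phosphorylate IRF3 and IRF7, named for that role, fell: Tbk1 went from 56.8, 55.0 and 57.8 CPM in the negative control to 45.0, 44.5 and 43.6 CPM (log2 -0.35, SE 0.06, edgeR adjusted p = 9.93e-06), and Ikbke from 20.8, 20.1 and 21.5 CPM to 12.4, 12.2 and 14.0 CPM (log2 -0.69, SE 0.09, adjusted p = 8.87e-08). No value here measures phosphorylation.

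Interferon transcripts were close to or below what these libraries could count. Of 21 interferon genes, 17 had no count in any library, and none passed the filter. Ifnb1, the interferon gene that IRF3 and IRF7 activate first, had 5, 1 and 3 counts in the Firre libraries and 0 in all 6 controls. Ifna4, another early IRF target, had 1, 1 and 0 counts with Firre and 0 in the controls. Ifne and Ifnz had 1 to 3 counts in scattered libraries, controls included. No test is given for genes below the filter.

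Among receptors, JAK kinases and STATs, 5 of 12 rose and 5 fell, at a median of 0.11, where 56% of all genes were called in either direction. Besides Stat2, Ifngr1, a chain of the interferon-gamma receptor, was among the genes with the smallest p and was lower, at -0.55. Of 22 repressors and feedback regulators 21 were tested, of which 8 rose and 4 fell, at a median of 0.13, which is close to the 56% of all genes called. Usp18, which removes ISG15 and blocks the interferon receptor, rose by 3.73 and Trim21, a ubiquitin ligase that acts on IRFs, by 2.17, while the phosphatase gene Dusp1 fell by 0.64. The corepressors named for binding IRF2 moved little: Irf2bp1 rose by 0.28 (SE 0.08, adjusted p = 4.76e-03), while Irf2bp2 and Irf2bpl did not pass, at -0.13 and -0.07.

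Irf5 encodes a factor that drives inflammatory cytokine genes in macrophages and B cells. The gene lies on the plus strand of chromosome 6, from 29526625 to 29541871. Irf5 stood at 5.77, 6.73 and 6.53 CPM with Firre. The vector controls had 7.76, 6.35 and 5.46 CPM and the blanks 6.19, 4.78 and 7.09 CPM. The groups overlapped, and the log2 fold change against the negative control was -0.04 (SE 0.16, edgeR adjusted p = 0.853). Its exons share 411 bases, 14.15% of their length, with Tnpo3 on the opposite strand, which had 19377 counts over the 9 libraries against 1100 for Irf5, so the level of Irf5 is uncertain unless the counting used strand. Of 11 inflammatory genes known as IRF5 targets, 8 were tested, 4 fell and 1 rose, at a median of -1.10. That number of calls is close to the 56% of all genes called. The chemokine gene Ccl3 and the cytokine gene Il1a fell by 4.08 and 2.66, and Ccl5, which IRF3 and IRF7 also induce, rose by 6.73. All 16 macrophage markers tested fell in the same libraries, and their part in the falls was not tested.

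Irf8 encodes a factor required for macrophage and dendritic cell development. The gene lies on the plus strand of chromosome 8, from 120736358 to 120756694. Irf8 stood at 3.90, 3.84 and 4.39 CPM with Firre. The vector controls had 5.34, 7.43 and 6.07 CPM and the blanks 6.89, 6.78 and 6.0 CPM. All 3 Firre libraries were below all 6 controls, on 77 to 85 counts per Firre library. Irf8 was 1.56-fold lower than in the vector controls, at -0.64 in log2 units (SE 0.16, edgeR adjusted p = 9.36e-04), and at -0.70 against the blanks (SE 0.16, adjusted p = 4.08e-04). At this depth Irf8 had the largest SE of the called members.

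Most blood cell markers had larger falls than Irf8, though the difference from Irf8 was not tested. Of 20 macrophage markers 16 were tested and all 16 fell, by values from -8.40 to -0.78 with -4.55 as the median, and C1qa and Ms4a7 had no count in the Firre group. All 6 pan-leukocyte markers fell, from -3.53 to -0.57 with a median of -2.95. Of all genes 28.4% were lower. Ptprc, the gene of the leukocyte antigen CD45, had 8 counts over the Firre group and 96 over the negative control, where Irf8 had 246 and 381 and Irf5 had 388 and 393. Spi1, the gene of the IRF8 partner PU.1, had 3 counts over the Firre group and 146 over the negative control. The ratio of Irf8 to Ptprc counts was 77.0, 28.3 and 21.0 in the Firre libraries, on 1, 3 and 4 Ptprc counts, and 3.35, 3.36 and 6.61 in the negative control. Which cells held the remaining Irf8 and Irf5 transcripts was not tested.

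Of 12 listed partners of IRF4 and IRF8, Spi1 among them, 10 were tested, 6 fell, 2 rose and 2 were not called, at a median of -0.56, where 28.4% of all genes were lower and 27.5% higher. The repressor gene Bcl6 rose by 0.76, and the helix-loop-helix factor gene Tcf3 fell by 0.62. Of 9 dendritic cell markers, Xcr1, Cd209a, Siglech and Ccr9 were at 0 in all 9 libraries, and the 1 tested, Zbtb46, fell by 0.26 (adjusted p = 0.034), and did not pass against the blank control. Of 14 lymphocyte markers the 1 tested was Pax5, a B-cell factor, which went from 0.377 to 2.95 CPM (log2 2.93, SE 0.34, adjusted p = 1.25e-08). Its blank-control level was 0.925 CPM, and the rise against it was smaller, at 1.68 (SE 0.30, adjusted p = 2.01e-05), while Cd3d, Cd2, Cd8a and Cd4 stayed at 0 in every library. Over the Firre group Pax5 held 179 of the 190 counts of the whole lymphocyte list, and the B-cell marker Ms4a1 had none.

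Irf4, the lymphocyte and plasma cell member, lies on the plus strand of chromosome 13, from 30749226 to 30766976. It had 0 counts in each of the 9 libraries, which allows a level of up to 0.0171 CPM over all 9 together and 0.0479 CPM over the Firre group, taking 3 counts as the limit. These limits cover counting error only.

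The make-up of the family's transcripts, taken per kilobase, moved toward Irf7. Irf7 was 81.9% ± 0.268 of the summed Irf level with Firre, 55.5% ± 0.692 in the negative control and 61.2% ± 0.490 in the blank control (SD, n = 3). Irf3 went from 18.4% ± 1.03 in the negative control to 5.14% ± 0.0778, and Irf9 from 10.1% ± 0.477 to 7.36% ± 0.0644 although its own level rose. Irf8 was 1.54% ± 0.291 and 0.285% ± 0.0270. A share falls wherever Irf7 rises, so these values describe the pool and add no separate evidence for any member. The merged exons of Irf7 cover the whole gene. With the longest coding transcript as the length, its level in the negative control was 54.2 in place of 32.1 CPM per kilobase.

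**Figure D4:**
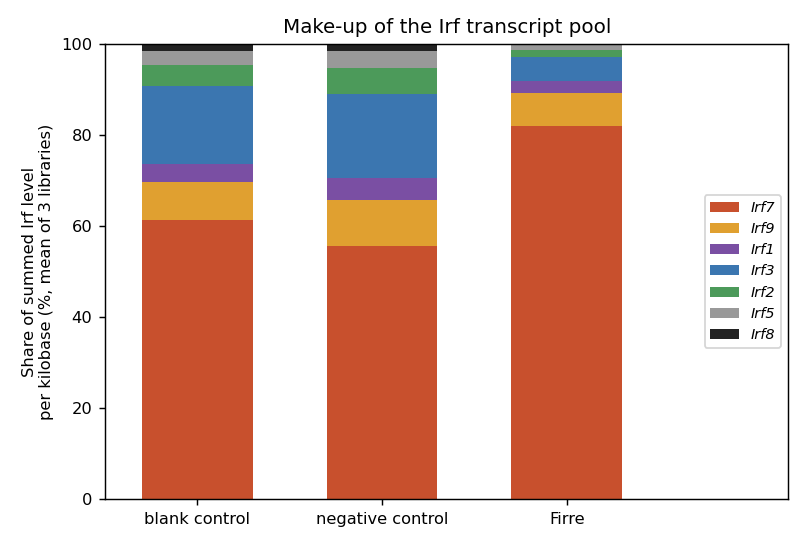
Share of each Irf gene in the summed family level per kilobase of exon (vertical axis, percent, mean of 3 libraries) in the 3 groups. Irf7 fills 81.9% of the Firre bar, against 55.5% and 61.2% in the controls.

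The promoter windows of the 4 members that changed were not alike in the motifs searched: Irf1 and Irf8 held 1 of them, and Irf7 and Irf9 held none. Windows of 300 bases, from 250 before to 50 after the annotated start, came from RefSeq on GRCm38.p6, which is the mm10 build, and all 8 members matched. They were searched on both strands for GAAANNGAAA, the spacing of GAAA repeats in an interferon-stimulated response element, and for TTCNNNGAA, the spacing of a gamma-activated site, which is its own reverse complement. Among 32851 windows, 3.44% held the first motif and 8.30% the second. Irf1 is shown for its single TTCNNNGAA match, 90 bases before the start, Irf8 for its 2 matches, at 171 and 153 bases before it, Irf2 for the 1 GAAANNGAAA match among the members, 241 bases before it, beside a TTCNNNGAA match at 224, and Irf7 because it rose most and held neither. Capitals mark the matches.
Irf1, chr11:53769764-53770063, plus strand: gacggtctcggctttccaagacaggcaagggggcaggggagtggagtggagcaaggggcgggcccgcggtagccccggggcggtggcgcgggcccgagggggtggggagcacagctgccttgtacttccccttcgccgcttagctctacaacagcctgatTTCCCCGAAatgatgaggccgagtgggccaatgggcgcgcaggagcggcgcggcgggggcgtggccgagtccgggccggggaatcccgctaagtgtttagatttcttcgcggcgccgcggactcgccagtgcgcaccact
Irf8, chr8:120736108-120736407, plus strand: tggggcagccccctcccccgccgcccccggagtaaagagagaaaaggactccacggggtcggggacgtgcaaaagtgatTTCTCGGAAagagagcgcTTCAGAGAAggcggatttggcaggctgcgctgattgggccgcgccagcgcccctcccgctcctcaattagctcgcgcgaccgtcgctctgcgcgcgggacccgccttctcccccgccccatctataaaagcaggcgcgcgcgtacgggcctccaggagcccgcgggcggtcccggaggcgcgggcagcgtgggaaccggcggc
Irf2, chr8:46739495-46739794, plus strand: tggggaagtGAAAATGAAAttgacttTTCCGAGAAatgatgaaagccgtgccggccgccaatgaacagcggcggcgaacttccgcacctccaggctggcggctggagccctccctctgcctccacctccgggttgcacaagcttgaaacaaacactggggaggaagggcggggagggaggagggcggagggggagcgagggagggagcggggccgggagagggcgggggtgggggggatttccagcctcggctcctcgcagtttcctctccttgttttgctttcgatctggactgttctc
Irf7, chr7:141266375-141266674, minus strand: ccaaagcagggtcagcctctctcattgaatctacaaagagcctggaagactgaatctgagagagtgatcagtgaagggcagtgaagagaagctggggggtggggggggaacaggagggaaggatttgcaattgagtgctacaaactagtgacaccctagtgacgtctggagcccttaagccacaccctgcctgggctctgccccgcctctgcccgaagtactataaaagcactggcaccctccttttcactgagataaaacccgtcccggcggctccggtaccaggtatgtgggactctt

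Irf1 and Irf8, whose windows both held TTCNNNGAA, moved in opposite directions, and Irf2, whose window held both motifs, did not pass the test. The part of these motifs in any change was not tested. The windows of Irf3, Irf4, Irf5 and Irf9 and the second annotated starts of Irf1, Irf8 and Irf9 held neither motif. Both Irf9 windows, which begin at 55603735 and 55604329, lie inside the gene span given above, which begins at 55603571. Bases before that start of Irf9 were not searched. A match is a description of these letters and not a measured binding site, and a window without one says nothing of sites elsewhere.

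Likeness of levels was measured by the root-mean-square difference of log2 levels over the 9 libraries, each gene centred on its mean. The genes most like each member were then found among 11843 protein-coding genes outside the family with at least 2 CPM. For Irf7 they were Parp14, Dhx58 and Phf11d, at 0.127, 0.136 and 0.153, all 3 higher with Firre by 2.19 to 2.53 on the log2 scale. For Irf9 they were Eif2ak2, the gene of the antiviral kinase PKR, at 0.0725, and the muscle genes Perm1 and Txlnb at 0.0736 and 0.0782. For Irf1 they were Adra1b, an adrenergic receptor gene, Fam189a2 and the muscle creatine kinase gene Ckm, at 0.0894 to 0.111. The cardiomyocyte markers rose in these libraries as given above, and their part in the rise of Irf1 was not tested. For Irf8 the most similar genes included the mitotic helicase gene Ercc6l and Myef2, at 0.0722 and 0.0839. Irf3 had Trim41, Tmem131l and Capzb at 0.0199 to 0.0263, and Irf2 had Nae1, Tmem19 and Ap1g1 at 0.0359 to 0.0433. Irf5 had Hook2, Cep57l1 and Fancg at 0.112 to 0.115. Since the libraries fall into 3 groups, this likeness mostly reflects the group means.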

How the data were processed

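RNA was measured in 9 libraries of isolated mouse cardiomyocytes. Per the labels' protocol, directional libraries followed depletion of ribosomal RNA, while another label calls the molecule polyA RNA, so the selection is uncertain. The authors deposited unnormalized counts for each Ensembl gene. FastQC, Trimmomatic, STAR, featureCounts and the build mm10 are named in the submitters' processing notes, without versions, and the strand setting was not found in any source used here. The 5 closing lines that name no gene held 16.3% to 17.4% of the counts and were left out. Symbols, lengths and coordinates came from GENCODE M21 (GRCm38), which matched 55227 of 55487 identifiers.

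All 9 libraries entered 1 fit with edgeR 4.0.16 in R 4.3.3 (quasi-likelihood F test, robust, TMM, filterByExpr with minimum count 10 and minimum total 15, 6 residual degrees of freedom, no covariates), adjusted by Benjamini-Hochberg over 15633 genes. Each SE is the size of the log2 change divided by the root of its F value. Alternatives used DESeq2 1.42.0, limma 3.58.1 (voom), other scalings, no filter, 2 groups alone, a replicate block and each library left out; the script was tested on simulated data. Replicates of a group differed beyond sampling noise (chi-square per degree of freedom 3.41 to 7.99). No label names a batch, so batch effects cannot be told apart from the groups.

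The members and the 15 lists were chosen with earlier results of these data known. Named are all members, Firre, the 3 members with the smallest p of each pathway list, Zbtb46 and Pax5 as the 1 marker tested in their lists, and the 3 most similar genes per member, except items that are not reported here; Tbk1, Ikbke, the interferon genes, Irf2bp1, Irf2bp2, Irf2bpl, Ptprc, Vcam1, Ifitm3 and the markers named for zero counts were added for their role or after their values were seen.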

Additional observations from a re-analysis of the deposited data

How the results depend on the processing

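Across the alternatives, 328 values of the 7 tested members kept their side of the threshold, and their direction where called, and 2 did not. DESeq2 gave no adjusted p for 6 further values between the controls, which are not counted. The 2 were Irf7 between the controls, at -0.28 (adjusted p = 0.0579) without blank control replicate 1, with -0.33 to -0.28 over the libraries left out, and Irf3 against the blank control, which passed at -0.16 with library totals alone. The cause was not tested for either. The number of genes called between the controls was 9, and 98 with no low-count filter, 32 with DESeq2 and 0 to 55 with each library left out. For Firre against the negative control it was 7938 to 8964 with each library left out, and with library totals alone 3685 were higher and 5050 lower, against 4306 and 4441. Libraries with the same replicate number did not deviate together (correlation -0.159 to 0.117, and -0.139 to 0.183 for different numbers), so the number was not taken as a pairing; a replicate block gave 8592, 8586 and 7 called genes for the 3 comparisons and changed no member's call. Levels per kilobase rest on the length chosen, as given for Irf7. Depth limits Irf5 and Irf8, which had 77 to 158 counts per library, and Irf4, which had none.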
